A study of Mus musculus with 95 samples.

Results

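HPC-1 and HPC-2, a pair of progenitor populations of mouse bone marrow, were compared at steady state, in mice that had received no treatment. The comparison used 13 of the 95 libraries of the series, namely all 8 libraries labelled HPC-1 at steady state and 5 of the 7 labelled HPC-2, replicates 1, 2, 3, 4 and 6. HPC-2 replicates 5 and 7 were left out because they carried the HPC-1 profile. Dntt stood at 185 CPM (counts per 1000000 counts of the library) in replicate 5 and at 410.2 CPM in replicate 7, and each had nearly the same counts as a library labelled HPC-1. The low level of HPC-1 genes and the high level of HPC-2 genes in the 5 libraries kept therefore follow in part from that choice. With all 7 HPC-2 libraries, 17 of 10053 genes differed, 16 higher (0.159%) and 1 lower (0.00995%) in HPC-1, against 1231 of 10739 with the 5. Both populations came from B6.SJL mice of 8 to 12 weeks, from the marrow of spine, femur, tibia and iliac bones, which was enriched for cKit and sorted by flow cytometry. RNA was amplified by SMART-Seq v4, which primes on the poly(A) tail, and made into libraries with Nextera XT. The labels give the same gate, CD48-negative and CD150-positive LSK cells, for HPC-1, HPC-2 and stem cells, and no separate HPC gates. They do not say whether libraries came from separate animals, so p-values measure the spread between these libraries, which may be technical.

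LSK cells (lineage-negative, Sca-1-positive, Kit-positive) hold the stem cells and earliest progenitors of blood. In general use HPC-1 names the CD48-positive, CD150-negative LSK cells, which overlap the Flt3-bearing, lymphoid-primed progenitors, and HPC-2 the CD48-positive, CD150-positive ones, which produce many platelets, red cells and myeloid cells. Lymphoid priming means that a multipotent cell already transcribes genes of the lymphocyte programme at low level, such as Dntt and the Rag genes, before it is committed. Platelet and red cell genes are in turn driven largely by Gata1, Gata2 and their partners.

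The libraries differed in depth of detection before any gene was compared. HPC-1 libraries had 12641 to 15384 genes with at least 1 count, 13957 ± 1114 on average (SD, n = 8). HPC-2 libraries had 3827, 11611, 8105, 9809 and 6102 in replicates 1, 2, 3, 4 and 6, 7891 ± 3053 on average (SD, n = 5). The groups did not overlap (exact permutation test, two-sided, p = 0.000777, the smallest its 1287 regroupings can give, and 0.00466 adjusted over 6 library measures). Total counts ran the other way, at 3990766 to 5585342 in HPC-1 and 5373718 to 8117353 in HPC-2. Among the 4039 well-expressed genes, those with a mean of at least 50 CPM over the 13 libraries, up to 44 (1.09%) had no count in an HPC-1 library. The same number was 2163 (53.6%) in HPC-2 replicate 1, 50 (1.24%) in replicate 2, 445 (11.0%) in replicate 3, 178 (4.41%) in replicate 4 and 1090 (27.0%) in replicate 6. A count of 0 in HPC-2 replicates 1 and 6 is thus common even for well-expressed genes, while 18 of the 4039 (0.446%) were at 0 in all 5. In rank order across well-expressed genes, which are not independent replicates, HPC-2 replicate 3 correlated with the mean of HPC-1 at rho 0.597 and with that of the other HPC-2 libraries at 0.557, and replicate 4 at 0.665 and 0.562. These libraries were kept, since their labels say HPC-2 and Dntt and Flt3 had no counts in them. HPC-1 replicate 7 had nearly the same counts as the left-out HPC-2 replicate 7 (chi-square per degree of freedom 2.06, against 25.6 or more between any of the 13), and without it 205 well-expressed genes differed in place of 293.

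**Figure D1:**
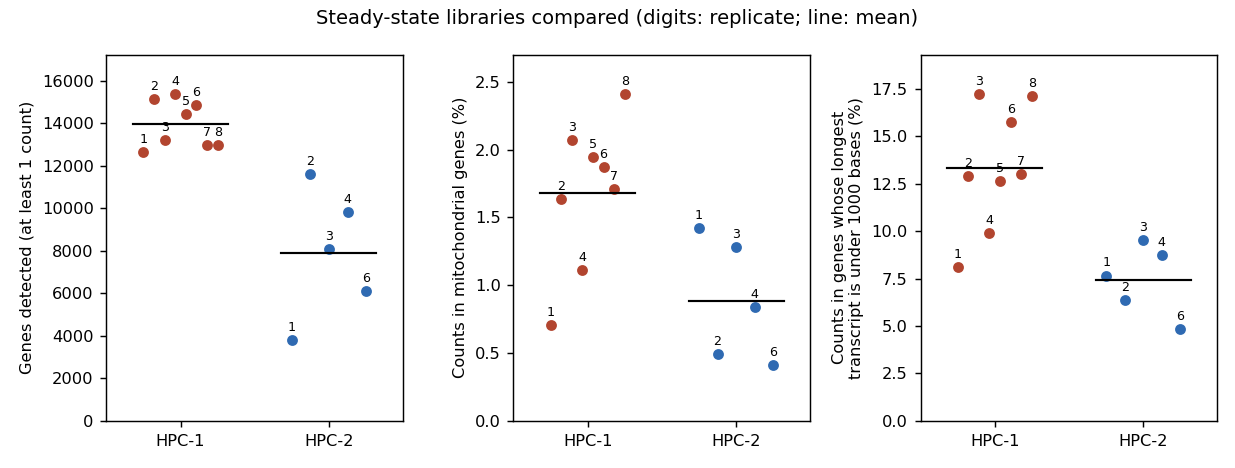
Genes with at least 1 count (left, number of genes), share of counts in mitochondrial genes (middle, percent) and share of counts in genes whose longest transcript is under 1000 bases (right, percent) in each of the 8 HPC-1 and 5 HPC-2 libraries, with the replicate number at each point and a line at the group mean. Detected genes do not overlap, from 12641 in HPC-1 against at most 11611 in HPC-2, and short transcripts hold 13.3% of counts on average in HPC-1 against 7.42% in HPC-2.

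Genes were tested with edgeR's quasi-likelihood test and called at a Benjamini-Hochberg adjusted p under 0.05, and log2 differences are HPC-1 minus HPC-2. Of the well-expressed genes 293 of 4039 (7.25%) were called, 209 higher (5.17%) and 84 lower (2.08%) in HPC-1, with a median log2 difference of 0.26 over all 4039. Of these calls 166 higher and 75 lower genes had counts in all 13 libraries. The groups did not overlap in 284 well-expressed genes (7.03%), of which 68 were called higher and 49 lower. Over all 10739 genes tested 1231 (11.5%) were called, 1142 higher (10.6%) and 89 lower (0.829%), with a median difference of 0.54. Of the 1142, 751 had no count in any HPC-2 library, and 757 had a mean under 10 CPM, a range in which 0 genes were called lower by edgeR although 962 of its 2762 had an unadjusted p under 0.05 in either direction. The balance of directions depended on the scaling. With RLE size factors in place of TMM the median over all genes was 0.15 in place of 0.54, and 118 well-expressed genes were higher and 198 lower in place of 209 and 84. DESeq2 called 74 higher and 214 lower. Small positive differences therefore depend on the scaling.

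**Figure D2:**
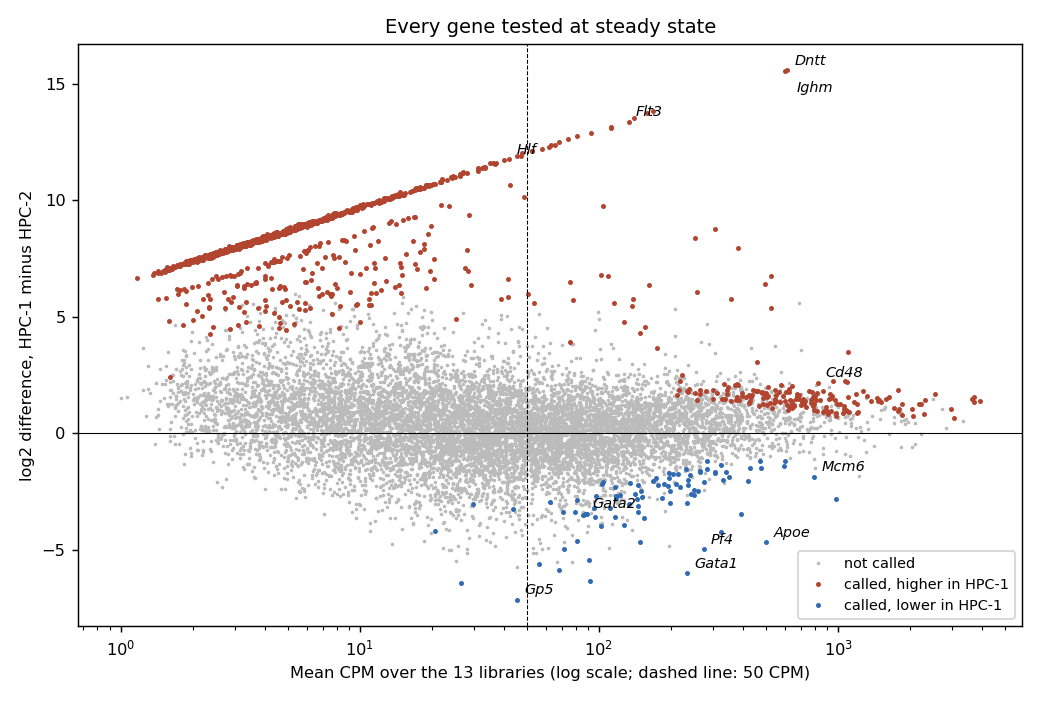
Log2 difference HPC-1 minus HPC-2 (vertical) against mean CPM over the 13 libraries (horizontal, log scale) for each of the 10739 genes tested. Red points are the 1142 genes called higher and blue points the 89 called lower in HPC-1, and the dashed line marks 50 CPM. The upper red band is made of genes with no HPC-2 counts, whose fitted difference has no upper bound and follows their level.

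The values of Dntt and Flt3 are a description, because these genes marked the libraries left out and so their absence from the 5 kept is fixed by that choice. Dntt encodes terminal deoxynucleotidyl transferase, which adds bases at the joints of rearranged antigen receptor genes (ENSMUSG00000025014, GRCm38 chr19:41029275-41059525, plus strand). It stood at 339 CPM in the lowest, 839 CPM in the median and 1958 CPM in the highest HPC-1 library, and at 0 in all 5 HPC-2 libraries. The groups were far apart. With 3 counts per library taken as the floor, the mean of Dntt was at least 2233-fold higher in HPC-1. Flt3, the receptor of the Flt3 ligand that sustains lymphoid progenitors (ENSMUSG00000042817, chr5:147330741-147400489, minus strand), stood at 78.2, 184 and 447 CPM in the lowest, median and highest HPC-1 library and at 0 in every HPC-2 library. Its mean was at least 486-fold higher. The antisense gene Gm26597 overlaps Flt3, at a mean of 32.3 CPM in HPC-1 and 0 in HPC-2, and whether the counting used strand is not given in the sources used here, so reads of the pair may be mixed.

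Pf4, platelet factor 4, a chemokine stored in platelet granules (ENSMUSG00000029373, chr5:90772435-90773383, plus strand), lay at 5.79, 16.1 and 45.95 CPM in the lowest, median and highest HPC-1 library. In HPC-2 it stood at 140.1, 275 and 1138 CPM in replicates 1, 2 and 3, 1826 CPM in replicate 4 and 41.3 CPM in replicate 6. All HPC-2 libraries kept but replicate 6 were above every HPC-1 library, and the log2 difference was -4.97 (SE 0.87, adjusted p = 0.00182). The left-out HPC-2 replicates 5 and 7 held Pf4 at 25.2 and 9.46 CPM, within the HPC-1 range. The Pf4 difference thus follows in part from the choice of libraries. Cd48, the surface protein that separates both HPC populations from stem cells (ENSMUSG00000015355, chr1:171682009-171705258, plus strand), stood at 534, 1095 and 2000 CPM in the lowest, median and highest HPC-1 library. HPC-2 libraries held 504.5, 360.4, 344, 220.2 and 310.1 CPM. The groups did not overlap, and Cd48 was higher in HPC-1 by 2.17 on the log2 scale (SE 0.37, adjusted p = 0.00171). In the 8 steady-state stem cell libraries the mean of Cd48 was 17.7 ± 25.0 CPM (SD). Replicate 1 of these, at 52.1 CPM, had nearly the same counts as HPC-2 replicate 1 of week 13 (chi-square per degree of freedom 4.63). Slamf1, which encodes CD150, was too sparse to test. In HPC-1 it had counts in 2 of 8 libraries, at 1.76 and 3.28 CPM. In HPC-2 it stood at 112 CPM in replicate 2, 0.155 CPM in replicate 3, 51.7 CPM in replicate 4 and 0 in replicates 1 and 6. Kit and Ly6a, which encodes Sca-1, were not called (adjusted p = 0.598 and 0.954), with HPC-2 libraries between 0 and 120.1 CPM for Kit and between 0 and 2207 CPM for Ly6a.

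**Figure D3:**
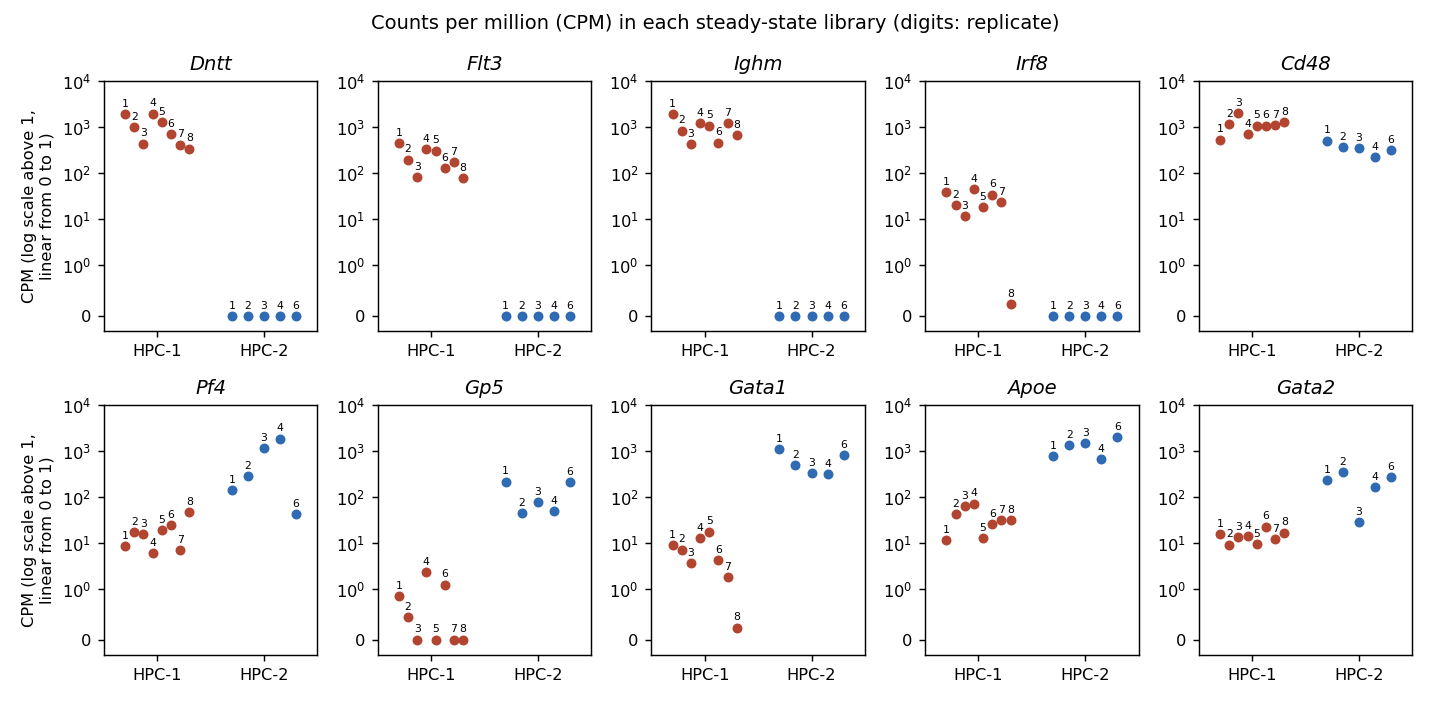
CPM (vertical, log scale above 1 and linear from 0 to 1) of 10 genes in each HPC-1 library (red, left) and each HPC-2 library (blue, right), with replicate numbers. The upper genes are higher in HPC-1, with Dntt, Flt3, Ighm and Irf8 at 0 in all 5 HPC-2 libraries, and the lower genes are lower in HPC-1, where Pf4 alone overlaps, through HPC-2 replicate 6 at 41.3 CPM.

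The promoters of these lineage markers are shown because GATA factors bind the letters AGATAA, the form of it that ends in G, and both of these with T as the first letter, and Gata1 and Gata2 were both lower in HPC-1. Each window runs from 250 bases before to 50 after the start of the RefSeq gene, read 5′ to 3′ on the gene's strand, with matches on either strand in capitals. The windows are from RefSeq on GRCm38.p6, at chr19:41029025-41029324 (plus) for Dntt, chr5:147400440-147400739 (minus) for Flt3, chr5:90772185-90772484 (plus) for Pf4 and chr16:30310732-30311031 (minus) for Gp5, a platelet glycoprotein described below.
Dntt: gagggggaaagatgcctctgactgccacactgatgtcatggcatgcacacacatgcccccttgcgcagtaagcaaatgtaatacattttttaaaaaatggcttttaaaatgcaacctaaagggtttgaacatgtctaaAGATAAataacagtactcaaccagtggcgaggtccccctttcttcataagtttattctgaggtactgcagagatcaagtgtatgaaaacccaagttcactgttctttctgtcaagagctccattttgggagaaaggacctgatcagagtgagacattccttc
Flt3: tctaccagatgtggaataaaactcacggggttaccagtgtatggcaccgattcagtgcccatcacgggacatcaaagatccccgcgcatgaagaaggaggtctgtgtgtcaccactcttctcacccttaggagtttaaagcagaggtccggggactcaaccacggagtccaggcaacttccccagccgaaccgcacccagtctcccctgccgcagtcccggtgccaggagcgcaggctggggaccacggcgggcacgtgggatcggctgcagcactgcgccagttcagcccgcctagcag
Pf4: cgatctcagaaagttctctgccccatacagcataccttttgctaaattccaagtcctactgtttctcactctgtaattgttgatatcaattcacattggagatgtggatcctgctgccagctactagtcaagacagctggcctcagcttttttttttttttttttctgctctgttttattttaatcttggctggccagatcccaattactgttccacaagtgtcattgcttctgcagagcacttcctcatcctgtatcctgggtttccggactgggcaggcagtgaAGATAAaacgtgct
Gp5: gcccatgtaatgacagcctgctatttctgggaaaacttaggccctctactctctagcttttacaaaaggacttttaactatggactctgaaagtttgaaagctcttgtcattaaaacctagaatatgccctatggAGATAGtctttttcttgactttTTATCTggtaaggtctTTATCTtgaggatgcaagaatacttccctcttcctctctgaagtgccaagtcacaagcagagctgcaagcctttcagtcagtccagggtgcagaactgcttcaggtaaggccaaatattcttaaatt
The Dntt window held 1 match, the Flt3 window 0, the Pf4 window 1 and the Gp5 window 3. Of all 32851 promoter windows of this length 9778 (29.8%) held at least 1 match, so a match by itself is common. The matches describe letters only and say nothing about binding in these cells.

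Of 28 genes of early lymphoid progenitors 22 were tested, 12 were higher and 0 lower in HPC-1, against 10.6% and 0.829% of all genes, and 14 members had no count in any HPC-2 library. Tested members of that kind entered the test only through HPC-1, where they had counts, and the count and median rest largely on them. The median log2 difference was 6.88, or 5.11 with genes at 0 set to their bound, beside 0.54 over all genes. Ighm, the constant region of the IgM heavy chain, whose sterile transcripts precede rearrangement (ENSMUSG00000076617, chr12:113418558-113422730, minus strand), stood at 429, 949 and 1910 CPM in the lowest, median and highest HPC-1 library. It was at 0 in all 5 HPC-2 libraries, so at least 2190-fold higher in HPC-1 (adjusted p = 1.38e-06). The groups were again far apart. Rag2, a subunit of the enzyme that cuts antigen receptor genes, ranged from 30.3 to 206 CPM in HPC-1, against 0 in HPC-2 (adjusted p = 0.00094), and its reads may be mixed with those of B230118H07Rik on the opposite strand (means of 211 and 43.9 CPM). Rag1, its partner, was too sparse to test, at 0 to 9.85 CPM in HPC-1 and 0 in HPC-2. Ly6d, a surface protein of early B-lineage progenitors, averaged 103 CPM in HPC-1 and 0 in HPC-2 (adjusted p = 0.00094). Satb1, a chromatin organizer of early lymphoid progenitors, averaged 168 CPM in HPC-1 and 0.207 CPM in HPC-2, where 1 of 5 libraries had counts (log2 9.74, SE 1.44, adjusted p = 0.00147). Il7r, the interleukin 7 receptor, ranged from 0 to 72.8 CPM in HPC-1 and was at 0 in HPC-2, so the groups touched at 0 although it was called (adjusted p = 0.00399). Blnk, Lax1, Notch1, Ccr7 and Cd27 completed the calls, with adjusted p from 0.00164 (Blnk and Lax1) to 0.0384 (Cd27).

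Not every lymphoid regulator followed. Ikzf1, the Ikaros transcription factor, averaged 126 CPM in HPC-1 and 63.2 CPM in HPC-2 and was not called (adjusted p = 0.511). Mef2c and Bcl11a, factors with roles in both lymphoid and other progenitors, averaged 208.5 and 104 CPM in HPC-1 and 278 and 145 CPM in HPC-2, and neither was called (adjusted p = 0.972 and 0.957). Leaving out HPC-2 replicates 1 and 6, which leaves 3 HPC-2 libraries, 16 of 24 tested members were higher and 0 lower, beside 10.6% and 1.97% of the 11875 genes then tested. Ikzf1 was then called (log2 1.61, SE 0.44, adjusted p = 0.0309), as was Tcf4, an E protein of lymphoid and dendritic lineages (log2 2.07, SE 0.53, adjusted p = 0.026).

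The largest differences among well-expressed genes towards HPC-1 also included genes outside the lymphoid list. Ccl9, a chemokine of myeloid cells, stood at 115, 229 and 578 CPM in the lowest, median and highest HPC-1 library, against 0 in HPC-2, at least 613-fold higher. P2ry14, the UDP-glucose receptor of progenitors, was at least 407-fold higher and St8sia4, a polysialic acid transferase, at least 248-fold. The actin-binding Cnn3 (at least 409-fold), Serpinf1 (at least 338-fold), Ms4a6b (at least 294-fold), Gm5111 (at least 577-fold) and 4930555A03Rik (at least 269-fold) completed this group. All were at 0 in the 5 HPC-2 libraries, above 0 in all 8 HPC-1 libraries, and kept adjusted p under the threshold when any single library was left out. Those fits cannot test the choice of HPC-2 libraries. The left-out HPC-2 replicates 5 and 7 had counts of every one of these genes, with Ccl9 at 409 and 347 CPM and P2ry14 at 204 and 376 CPM. With all 7 HPC-2 libraries 0 well-expressed genes were called higher in HPC-1, so all of these genes lost their calls. Fits with a block on the replicate number or on the number in the description each left 2 well-expressed genes called higher. Those were Dntt and Ighm, so this group lost its calls there too. Elane, neutrophil elastase, was the exception within the group, because it was at 0 in 1 HPC-1 library and so touched the HPC-2 values (median 147 CPM, highest 657 CPM, at least 511-fold higher on the means, adjusted p = 0.00203). Among genes with means of 10 to 50 CPM, Ms4a6c, Emcn, Paqr5, Hlf and Ighv1-77 headed the list, with at least 147-fold to at least 174-fold higher means. They had no count in any HPC-2 library kept and so entered the test only through HPC-1. Ms4a6c reads may be mixed with those of the opposite-strand BE692007.

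Of 20 tested granulocyte and monocyte genes 6 were higher and 0 lower in HPC-1, beside 10.6% and 0.829% of all genes, with a median log2 difference of 2.56. Among the 6, Elane, Irf8, Gfi1 and Csf1r were at 0 in every HPC-2 library kept and entered the test only through HPC-1, so the count rests largely on them. Irf8, the factor that directs monocyte and dendritic fate, stood at 0.236, 21.5 and 45.2 CPM in the lowest, median and highest HPC-1 library and at 0 in HPC-2 (at least 53.1-fold higher, adjusted p = 0.00274). Gfi1, a repressor of granulocyte progenitors, stood at 7.94 CPM in the median HPC-1 library, against 0 in HPC-2 (adjusted p = 0.00246). Csf1r, the receptor of macrophage colony-stimulating factor, had a median of 4.34 CPM in HPC-1 (adjusted p = 0.0115). Ctsg, a granule protease, averaged 262 CPM in HPC-1 and 3.64 CPM in HPC-2 (adjusted p = 0.025), and F13a1 was the remaining call. Mpo, the peroxidase of neutrophil granules, ranged from 114.1 to 672 CPM in HPC-1, against 0, 0.129, 49.0, 0 and 0 CPM in HPC-2. Those values did not overlap, but the test missed the threshold (adjusted p = 0.0654). Spi1, the PU.1 factor of myeloid and lymphoid cells, averaged 107 CPM in HPC-1 and 17.9 CPM in HPC-2 without a call (adjusted p = 0.268), and Plac8 and Lyz2 were not called either (adjusted p = 0.0739 and 0.76). Without HPC-2 replicates 1 and 6, 9 of 21 members were higher, beside 10.6% of all genes, Spi1 among them (log2 2.06, SE 0.53, adjusted p = 0.0256).

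Mast cell and basophil genes were mostly too sparse, with 5 of 12 members tested. Mcpt8, a protease of basophils, stood at 8.87, 48.6 and 70.2 CPM in the lowest, median and highest HPC-1 library and at 0 in HPC-2 (at least 98.8-fold higher, adjusted p = 0.00164). Il4 ranged from 0 to 9.24 CPM in HPC-1, against 0 in HPC-2 (adjusted p = 0.0122). Mcpt8 and Il4 were at 0 in every HPC-2 library kept, so both entered the test only through HPC-1. The left-out HPC-2 replicates 5 and 7 held Mcpt8 at 26.6 and 77.2 CPM and Il4 at 0. Cpa3, the mast cell carboxypeptidase, reached 47.9 to 765 CPM in HPC-1 and 0, 31.0, 0.155, 73.3 and 0 CPM in HPC-2, and these overlapping values were not called (adjusted p = 0.127).

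Of 19 receptors of blood cell growth factors tested, 6 were higher in HPC-1 and 0 lower, beside 10.6% and 0.829% of all genes, with a median log2 difference of 1.01. Beside Flt3, Il7r and Csf1r, already described, they were Il1r1, Il6st and Cxcr4. Flt3 marked the libraries left out. All of the 6 but Cxcr4 were at 0 in every HPC-2 library kept and entered the test only through HPC-1, so the count rests largely on them. Il1r1, the receptor of interleukin 1, stood at 27.1, 40.3 and 68.2 CPM in the lowest, median and highest HPC-1 library and at 0 in HPC-2 (at least 97.9-fold higher, adjusted p = 0.00152). Il6st, the shared gp130 chain of the interleukin 6 family, had a median of 11.5 CPM in HPC-1, against 0 (adjusted p = 0.00259). Cxcr4, which holds progenitors in the marrow, averaged 17.8 CPM in HPC-1 and 0.417 CPM in HPC-2 (adjusted p = 0.0283).

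In the list of dendritic cell and MHC class II genes 2 of 8 tested members were higher and 0 lower, beside 10.6% and 0.829% of all genes, with a median of 1.13. Cd74, the invariant chain, stood at 39.1, 140.2 and 351 CPM in the lowest, median and highest HPC-1 library and at 0, 5.94, 0.155, 2.40 and 0 CPM in HPC-2. The groups were apart, by 6.79 on the log2 scale (SE 1.46, adjusted p = 0.00543). H2-Aa, a class II chain, averaged 169.5 CPM in HPC-1 and 69.8 CPM in HPC-2 and was not called (adjusted p = 0.547). Cd300c was the other call, at 0 in every HPC-2 library kept, so that it entered the test only through HPC-1.

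Genes of stem cell identity were called in both directions. Of 20 tested, 4 were higher and 1 lower in HPC-1, beside 10.6% and 0.829% of all genes, with a median of 0.51, close to the 0.54 of all genes. Hlf, a transcription factor of stem cells, stood at 28.6, 67.1 and 123 CPM in the lowest, median and highest HPC-1 library, against 0 in HPC-2 (at least 154-fold higher, adjusted p = 0.00094). Mecom, the Evi1 locus, had a median of 10.8 CPM in HPC-1, against 0.129 CPM in HPC-2 replicate 2 and 0 in the other 4 libraries (adjusted p = 0.00257). Prdm16, a relative of Mecom, and Procr, the protein C receptor that marks stem cells, were the other calls in that direction (adjusted p = 0.00164 and 0.00529). These 4 genes had at most 0.129 CPM in any HPC-2 library kept and so entered the test only through HPC-1. Gata2 (ENSMUSG00000015053, chr6:88193891-88207032, plus strand), a factor of stem, megakaryocyte and mast cells, went the other way. It stood at 9.00, 13.6 and 22.4 CPM in the lowest, median and highest HPC-1 library and at 225.5, 342, 28.3, 161 and 270.5 CPM in HPC-2. All HPC-2 libraries kept lay above all HPC-1 libraries (log2 -3.45, SE 0.69, adjusted p = 0.00399). The left-out HPC-2 replicates 5 and 7 held Gata2 at 59.1 and 12.5 CPM.

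Of 24 megakaryocyte and platelet genes 18 were tested, 4 were lower in HPC-1 and 0 higher, against 0.829% and 10.6% of all genes, with a median log2 difference of -3.32. In bulk libraries, fewer cells of a type and less RNA per cell cannot be told apart. Gp5, glycoprotein V of the platelet receptor for von Willebrand factor (ENSMUSG00000047953, chr16:30307685-30310779, minus strand), had 0, 0.22 and 2.32 CPM in the lowest, median and highest HPC-1 library. HPC-2 libraries held 212.5, 43.4, 76.9, 47.6 and 205.4 CPM, all far above the HPC-1 range (log2 -7.13, SE 1.36, adjusted p = 0.00293). Gp1bb, a subunit of the same receptor, reached 2.92 CPM at most in HPC-1, against 0, 67.4, 89.1, 182 and 0.37 CPM in HPC-2 (log2 -6.42, SE 1.84, adjusted p = 0.0296), and its call was lost in 6 of the 13 fits that left out 1 library. Its position overlaps that of Sept5 on the same strand, at means of 0 and 3.80 CPM. Cd9, a tetraspanin abundant on megakaryocytes, stood at 90.8, 151 and 173 CPM in the lowest, median and highest HPC-1 library. HPC-2 libraries held 895, 375 and 620.0 CPM in replicates 1, 2 and 3, 1268 CPM in replicate 4 and 225 CPM in replicate 6, without overlap (log2 -1.86, SE 0.44, adjusted p = 0.00891). Pf4 was the remaining call.

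Several further platelet genes were high in HPC-2 replicates 2, 3 and 4 and at 0 in replicates 1 and 6. Vwf, von Willebrand factor, was at 0.41 CPM at most in HPC-1 and at 0, 29.0, 163, 88.5 and 0 CPM in HPC-2, too few libraries for the test over all 13. Cavin2, a caveolar protein of platelets, had no count in any HPC-1 library and 0, 39.0, 213, 278 and 0 CPM in HPC-2. Without replicates 1 and 6, 15 of 21 tested members were lower in HPC-1 and 0 higher, beside 1.97% and 10.6% of all genes. Replicates 1 and 6 were left out with their zeros in view, so this count is a description of the other 3 libraries, and members such as Vwf entered it only through them. The log2 difference of the integrin subunit Itga2b was then -4.80 (SE 1.13, adjusted p = 0.0185) and that of the thrombin receptor F2r -4.52 (SE 0.92, adjusted p = 0.00965). Fli1 and Selp were not called then (adjusted p = 0.519 and 0.425), nor was Nfe2 (adjusted p = 0.0839). With all 7 HPC-2 libraries the list median was -2.33 and 0 members were called. RLE scaling and DESeq2 each called 8 of the 18 lower and limma voom 7, beside 1.96%, 2.95% and 0.298% of all genes.

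Of the erythroid list 17 of 20 members were tested, 3 were lower and 0 higher in HPC-1, beside 0.829% and 10.6% of all genes, with a median of -2.08. Gata1 (ENSMUSG00000031162, chrX:7959260-7978071, minus strand), the master factor of the red cell and megakaryocyte lineages, stood at 0.236, 5.58 and 17.4 CPM in the lowest, median and highest HPC-1 library. HPC-2 replicates 1, 2, 3, 4 and 6 stood at 1079, 478, 325, 315 and 789.9 CPM, with no overlap (log2 -5.99, SE 0.77, adjusted p = 0.000622). The left-out HPC-2 replicates 5 and 7 held Gata1 at 0 and 2.03 CPM. Zfpm1, the Gata1 cofactor FOG1, averaged 1.96 CPM in HPC-1 and 50.4 CPM in HPC-2 (log2 -4.19, SE 1.24, adjusted p = 0.0363), with 0 in HPC-2 replicate 3. Its call was lost in 8 of the 13 fits that left out 1 library. Aqp1, the water channel of red cells (ENSMUSG00000004655, chr6:55336432-55348555, plus strand), reached 7.54 CPM at most in HPC-1, against 139.9, 59.1, 107, 137 and 736 CPM in HPC-2 (log2 -6.33, SE 1.24, adjusted p = 0.00355). Klf1, a red cell factor downstream of Gata1, averaged 14.7 CPM in HPC-1 and 200.4 CPM in HPC-2 and missed the threshold (adjusted p = 0.0913). Its HPC-2 values were 198, 351, 77.7 and 374.9 CPM in replicates 2, 3, 4 and 6, above all HPC-1 values, and 0 in replicate 1. Without replicates 1 and 6 Klf1 was lower (log2 -3.55, SE 0.80, adjusted p = 0.0154), as was Gfi1b, a repressor that red cells and megakaryocytes need (log2 -2.57, SE 0.38, adjusted p = 0.00169), in a set of 5 calls of 17, beside 1.97% of all genes.

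Apoe, apolipoprotein E (ENSMUSG00000002985, chr7:19696109-19699188, minus strand), had the highest mean in HPC-2 of the 12 well-expressed genes with the largest differences in that direction. It stood at 11.4, 31.1 and 70.7 CPM in the lowest, median and highest HPC-1 library. HPC-2 replicates 1, 2, 3, 4 and 6 held 766.5, 1341, 1486, 645 and 1979 CPM. The lowest of these lay far above the highest HPC-1 library (log2 -4.68, SE 0.52, adjusted p = 0.000167). The left-out HPC-2 replicates 5 and 7 held Apoe at 109 and 31.1 CPM. Mfsd2b, the sphingosine 1-phosphate exporter of red cells and platelets, averaged 4.26 CPM in HPC-1 and 229 CPM in HPC-2, with 0 in replicate 1 (adjusted p = 0.0266). Tuba8, an alpha tubulin, averaged 12.2 CPM in HPC-1 and 367 CPM in HPC-2, again with 0 in replicate 1 (adjusted p = 0.042). The call of Mfsd2b was lost in 4 and that of Tuba8 in 10 of the 13 fits that left out 1 library.

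In other genes among the 12 largest in this direction 1 or 2 HPC-2 libraries were far above the rest, or the call depended on single libraries. Armc5 stood at 693 CPM in HPC-2 replicate 1 and at most at 17.7 CPM in the other 4, against 4.01 CPM at most in HPC-1. Gbp2, an interferon-induced GTPase, stood at 3642 CPM in HPC-2 replicate 1 and between 0 and 124 CPM in the others, against 4.26 to 90.4 CPM in HPC-1, and without replicate 1 its adjusted p was 0.542. Scin, an actin-severing protein of megakaryocytes, stood at 678 CPM in HPC-2 replicate 6, 94.4 CPM in replicates 2 and 3 and at most 0.186 CPM in replicates 1 and 4, against 10.1 CPM at most in HPC-1. The calls of Slc38a5, Orai2 and Gpat4 were lost in 8, 10 and 10 of the 13 fits that left out 1 library. Orai2 was high in HPC-2 replicates 1 and 6 (656 and 212 CPM). Its direction turned when libraries of fewer than 10000 detected genes were left out, which kept HPC-2 replicate 2 alone.

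Of 32 genes of DNA replication 6 were lower in HPC-1 and 0 higher, beside 0.829% and 10.6% of all genes, with a median of -0.65, and the 6 were the whole MCM helicase that unwinds DNA at forks. Mcm6 stood at 173, 275.1 and 619 CPM in the lowest, median and highest HPC-1 library. HPC-2 libraries held 1671 CPM in replicate 1, 1485 CPM in replicate 2, 457 CPM in replicate 3, 953 CPM in replicate 4 and 3183 CPM in replicate 6. Replicate 3 lay inside the HPC-1 range and the others lay above it (log2 -1.85, SE 0.38, adjusted p = 0.00475). Mcm3 did not overlap, at 58.9 to 182 CPM in HPC-1 and 225 to 969 CPM in HPC-2 (log2 -1.78, SE 0.47, adjusted p = 0.0181). Mcm7, whose position overlaps Cops6, differed by -1.71 (SE 0.43, adjusted p = 0.0127), Mcm5 by -2.62 (SE 0.66, adjusted p = 0.0132), Mcm2 by -2.22 (SE 0.67, adjusted p = 0.0393) and Mcm4 by -1.67 (SE 0.45, adjusted p = 0.0219). Without HPC-2 replicates 1 and 6 Mcm2 and Mcm5 were not called (adjusted p = 0.592 and 0.165), while Mcm3, Mcm4, Mcm6 and Mcm7 were, in a set of 9 of 32, beside 1.97% of all genes. Pcna, the sliding clamp, averaged 682 CPM in HPC-1 and 535 CPM in HPC-2 and was not called (adjusted p = 0.563).

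Of 24 listed mitosis genes edgeR called 0 over the 13 libraries, with a median of -0.23, and of 15 listed G1 cyclins, kinases and inhibitors 0, also with a median of -0.23. Aurkb, the kinase of the chromosomal passenger complex, averaged 82.0 CPM in HPC-1 and 349 CPM in HPC-2 without a call (adjusted p = 0.146). Cdk6, a G1 kinase of progenitors, averaged 159 CPM in HPC-1 and 345.5 CPM in HPC-2 (adjusted p = 0.512). Of 24 ribosome biogenesis genes 2 were lower and 1 higher, beside 0.829% and 10.6% of all genes, with a median of -0.55. The nucleolar chaperone Nolc1 ranged from 3.40 to 114 CPM in HPC-1, against 182 to 863.5 CPM in HPC-2 (log2 -2.79, SE 0.68, adjusted p = 0.0114). The rRNA methylase Fbl ranged from 30.9 to 55.6 CPM in HPC-1, against 95.7 to 553 CPM in HPC-2 (log2 -2.14, SE 0.55, adjusted p = 0.0161). The groups overlapped in neither gene. Npm1 was higher by 0.98 (SE 0.30, adjusted p = 0.042), and that call was lost in 9 of those fits. Of 16 glycolysis genes 2 were lower, Eno1 and Pfkl, and 0 higher, beside 0.829% and 10.6% of all genes, with a median of -0.84. Pfkl, a phosphofructokinase subunit, was highest in HPC-2 replicate 6, at 329.7 CPM, and lost its call in 8 of the 13 fits that left out 1 library. Enolase 1 ranged from 79.4 to 534 CPM in HPC-1, against 602 to 1106 CPM in HPC-2, without overlap (log2 -1.47, SE 0.41, adjusted p = 0.0237). Ldha, which makes lactate, averaged 884 CPM in HPC-1 and 1977 CPM in HPC-2 and missed the threshold (adjusted p = 0.0646).

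Of 32 nuclear genes of the respiratory chain 11 were higher in HPC-1 and 0 lower, beside 10.6% and 0.829% of all genes, with a median of 1.11. Ndufa4, a small subunit of the chain, stood at 732, 1469 and 2576 CPM in the lowest, median and highest HPC-1 library and at 502, 312.5, 521, 431 and 361 CPM in HPC-2. The groups did not overlap (log2 2.24, SE 0.38, adjusted p = 0.00167). Cox7b, Uqcrh and Atp5j2 differed by 1.80, 1.73 and 1.56 (SE 0.47, 0.45 and 0.42, adjusted p = 0.0173, 0.0174 and 0.0213). Transcript length moved with these calls. Well-expressed genes called higher in HPC-1 had a median longest transcript of 1226 bases and those called lower 2982 bases, against 2739 bases for all well-expressed genes. Under 1000 bases were 34.9% of the higher, 1.19% of the lower and 8.08% of all. Genes of such short transcripts held 13.3% ± 3.28 of all counts in HPC-1 and 7.42% ± 1.87 in HPC-2 (SD, n = 8 and 5, exact permutation test, two-sided, p = 0.00544, adjusted 0.00816). With an offset per library for transcript length and GC content 3 of the 32 remained called and their median was 0.13, beside 0.29 over all genes. RLE scaling called 4 higher and 1 lower, beside 9.7% and 1.96% of all genes, and DESeq2 called 1 higher, beside 10.8%. With the offset 9.52% of all genes were called higher and 1.04% lower, and without HPC-2 replicates 1 and 6 there were 2 higher and 1 lower. Over all well-expressed genes the offset gave 98 higher and 105 lower calls in place of 209 and 84.

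Cytosolic ribosomal protein genes were looked at as a set chosen after their values were seen. All 76 had a positive difference and 54 were called higher in HPC-1, beside 10.6% of all genes, with a median of 1.28. Their counts were 7.04% ± 1.39 of the total in HPC-1 and 4.20% ± 1.04 in HPC-2 (SD, exact permutation test, two-sided, p = 0.00389, adjusted 0.00777). Groups overlapped in all but 3. RLE scaling called 26 and the offset 19, with 61 of 76 positive and a median of 0.44 under the offset, and DESeq2 called 0. Many of these genes have processed copies that can share reads. Mitochondrial genes held 1.68% ± 0.544 of counts in HPC-1 and 0.887% ± 0.453 in HPC-2 (SD, exact permutation test, two-sided, p = 0.0256, adjusted 0.0308).

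Of 18 interferon response genes tested 2 were higher and 1 lower, beside 10.6% and 0.829% of all genes, so the share higher was near that of all genes, with a median of -0.52. Ifi27l2a stood at 56.6 to 206 CPM in HPC-1 and at 0 in 4 HPC-2 libraries and 7.81 CPM in replicate 4 (log2 6.48, SE 1.75, adjusted p = 0.0211). Stat2, a part of the interferon-activated factor, averaged 7.93 CPM in HPC-1, against 0 in HPC-2 (at least 17.8-fold higher, adjusted p = 0.00164). Stat2 had no count in any HPC-2 library kept and so entered the test only through HPC-1. Gbp2 was the lower gene. Of 19 immediate early genes, the first to be transcribed after a signal, edgeR called 0, with a median of -0.09. Dusp1, a phosphatase induced by stress, ranged from 109.9 to 1021 CPM in HPC-1 and from 0 to 3431 CPM in HPC-2 (adjusted p = 0.507).

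**Figure D4:**
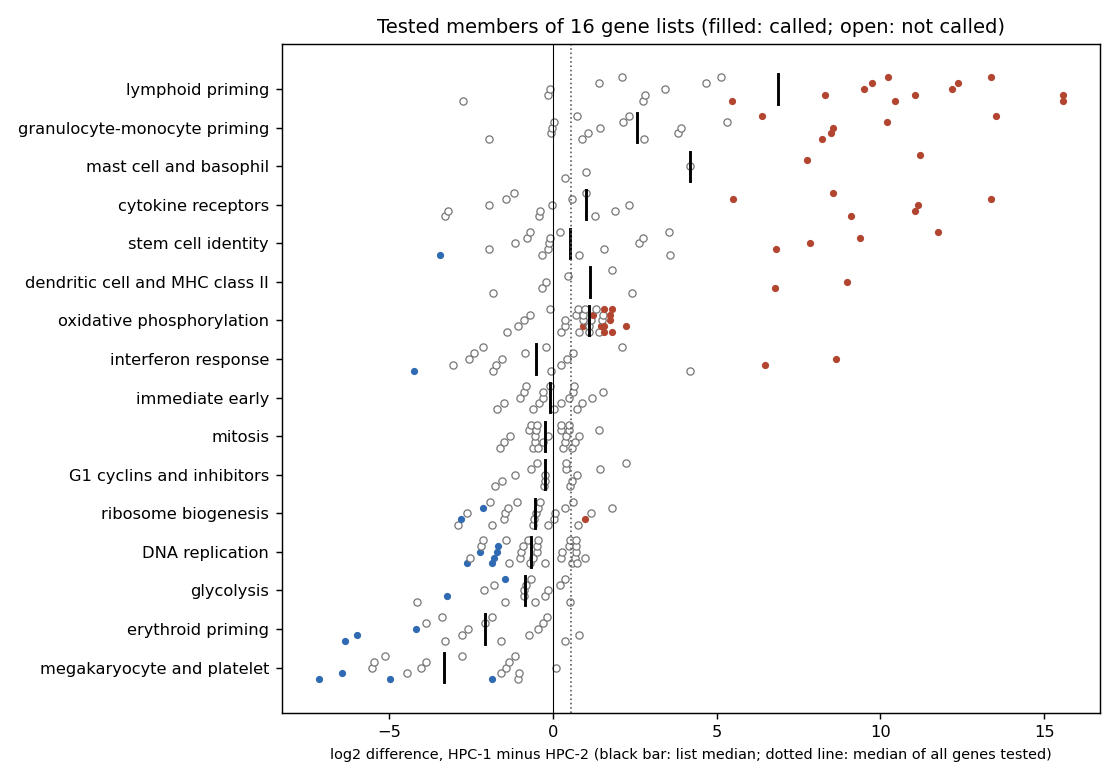
Log2 difference HPC-1 minus HPC-2 (horizontal) of each tested member of 16 gene lists (rows). Filled points are called, red for higher and blue for lower in HPC-1, open points are not called, black bars are list medians and the dotted line is the median of all genes tested, 0.54. Lymphoid priming lies furthest to the right with a median of 6.88, megakaryocyte and platelet genes furthest to the left with -3.32.

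Markers of other cells were looked for in the same libraries. Of 8 T and NK cell markers all were at 0 in every HPC-2 library and their sum reached at most 11.4 CPM in HPC-1. The B cell markers Pax5 and Ms4a1 were at 0 in all 13 libraries, and the list summed to 56.9 to 189 CPM in HPC-1 and 0 to 136 CPM in HPC-2, most of it Cd79b. Stroma markers summed to at most 6.96 CPM in HPC-1 and 0 in HPC-2. Mature myeloid markers, mainly S100a8, S100a9, Camp and Ngp, summed to 1.27 to 4084 CPM in HPC-1, with the highest value in replicate 5, and to 0 to 7515 CPM in HPC-2, with the highest in replicate 4. None of the 4 tested was called (edgeR adjusted p of 0.703 or more). Red cell markers summed to 3.80 to 194 CPM in HPC-1 and 0 to 124 CPM in HPC-2, with 0 of 4 called. The endothelial list summed to 68.9 to 141 CPM in HPC-1 and 0 to 41.4 CPM in HPC-2. Emcn, which stem cells express too, was called higher (adjusted p = 0.00108). Emcn had no count in any HPC-2 library kept and so entered the test only through HPC-1. The 4 stem cell markers Hlf, Procr, Fgd5 and Mecom summed to 46.4 to 145 CPM in HPC-1 and 0 to 0.129 CPM in HPC-2. Of these 3 of 3 tested were higher, beside 10.6% of all genes. They are the Hlf, Procr and Mecom calls already counted under stem cell identity, and they entered the test only through HPC-1. The part of other cells in the differences was not tested.

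The same contrast was available in libraries not used above. After transplant of 8000 LSK cells into mice given 900 cGy, HPC-1 and HPC-2 were collected at 8 times between week 3 and week 16, with 24 libraries of each. There 530 of 10584 genes (5.01%) were called with week as a covariate, 363 higher (3.43%) and 167 lower (1.58%) in HPC-1. Of the 209 well-expressed genes called higher at steady state 48 were called higher again, and of the 84 called lower 19 were called lower again. None of the 293 was called in the opposite direction. Signs were the same in 184 of 209 and 73 of 84, beside 6476 of all 10177 genes tested in both, of which 4.66% were called in the same direction as their steady-state sign and 0.236% in the opposite one. Near-identical pairs of libraries exist in this set too, 1 of them with an HPC-1 and an HPC-2 label. Without the 4 HPC-1 and 4 HPC-2 libraries in such pairs 469 genes were called.

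The lineage markers carried over. Dntt averaged 663 CPM in transplanted HPC-1, with counts in 24 of 24 libraries, and 27.8 CPM in transplanted HPC-2, with counts in 8 of 24 (log2 7.97, SE 1.05, adjusted p = 4.97e-07). Flt3 averaged 188 CPM in HPC-1 and 8.92 CPM in HPC-2 (log2 5.59, SE 0.79, adjusted p = 2.14e-06). Some transplanted HPC-2 libraries thus had Dntt or Flt3 counts, whereas the 5 steady-state HPC-2 libraries had none. That contrast is fixed by the choice of libraries. Steady-state HPC-2 replicates 5 and 7, which had counts of both genes, were left out, while no transplanted library was left out on that ground. Ighm (log2 5.82, SE 0.95, adjusted p = 2.29e-05), Rag2 (log2 9.36, SE 1.10, adjusted p = 4.28e-08), Mcpt8 (log2 8.57, SE 1.07, adjusted p = 1.56e-07) and Il1r1 (log2 5.07, SE 0.99, adjusted p = 0.000473) were higher in HPC-1 again. Pf4 averaged 18.4 CPM in transplanted HPC-1 and 713 CPM in transplanted HPC-2 (log2 -5.24, SE 0.46, adjusted p = 1.8e-11). Gp1bb (log2 -9.08, SE 0.77, adjusted p = 7.13e-12), Gp5 (log2 -5.40, SE 0.81, adjusted p = 5.64e-06), Gata2 (log2 -2.58, SE 0.26, adjusted p = 1.33e-09), Apoe (log2 -3.56, SE 0.38, adjusted p = 4.68e-09) and Gata1 (log2 -3.54, SE 0.67, adjusted p = 0.000295) were lower again. Aqp1 was lower (log2 -3.63, SE 0.89, adjusted p = 0.00659) but not without the near-identical libraries (adjusted p = 0.0594). Klf1, not called at steady state, was lower in transplanted HPC-1 (log2 -2.81, SE 0.60, adjusted p = 0.00156), and Cpa3 was higher (log2 1.44, SE 0.30, adjusted p = 0.000972).

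Other steady-state differences did not appear there. Mcm6 averaged 548.5 CPM in transplanted HPC-1 and 634 CPM in transplanted HPC-2 (log2 -0.08, SE 0.29, adjusted p = 0.98), and Mcm3 and Mcm7 were not called either (adjusted p = 0.974 and 0.987). Eno1 differed by -0.01 (SE 0.25, adjusted p = 0.996) and Ndufa4 by 0.49 (SE 0.22, adjusted p = 0.297). Mecom averaged 16.4 CPM in transplanted HPC-1 and 27.2 CPM in transplanted HPC-2 (adjusted p = 0.987), and Cd74 188 and 452 CPM in the same order (adjusted p = 0.407). Hlf was higher in HPC-1 again, at 68.3 CPM against 23.9 CPM in HPC-2 (log2 2.02, SE 0.49, adjusted p = 0.00573). Whether these differences changed between steady state and transplant was not tested.

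**Figure D5:**
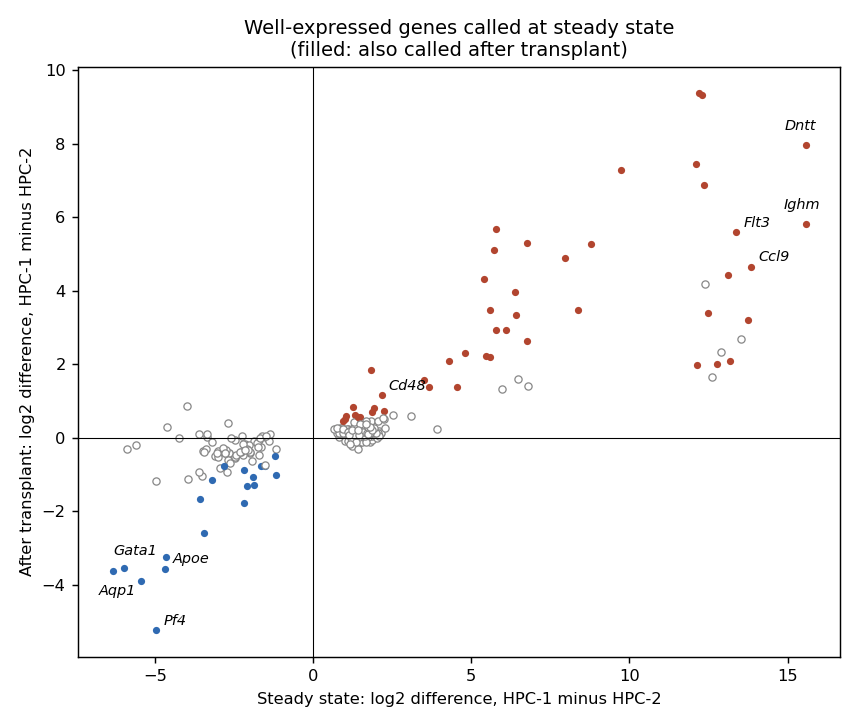
Log2 difference HPC-1 minus HPC-2 after transplant (vertical) against that at steady state (horizontal) for the 293 well-expressed genes called at steady state. Filled points were called after transplant too, 48 in red and 19 in blue, and open points were not. Genes near the zero line of the vertical axis, among them most of those with differences under 3 at steady state, were not called after transplant.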

How the data were processed

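The authors deposited a table of raw counts per gene for the whole series (53465 Ensembl entries, 3433 of them without a symbol), whose values are whole numbers. Reads had passed through Trimmomatic 0.36, HISAT2 2.0.5, Picard and featureCounts on GRCm38 (mm10), per the submitters' processing notes. The annotation release and the strand setting are not given in the sources used here. Names and positions were taken from GENCODE M21, which holds 99.6% of the IDs, and promoters from RefSeq on GRCm38.p6.

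Samples were grouped by their titles. The 8 HPC-1 and 5 HPC-2 steady-state libraries were fitted alone with edgeR 4.0.16 in R 4.3.3 (filterByExpr with a minimum count of 10 and total of 15, TMM scaling, quasi-likelihood F test, two-sided, Benjamini-Hochberg adjustment over all genes tested, threshold 0.05). CPM are deposited counts per 1000000 of a library's total. Total counts of the 13 libraries ran from 3990766 to 8117353, and intervals and floors, of 3 counts per library, cover counting error only. Single values per library were compared by exact permutation over libraries. The transplanted libraries were fitted with week as a covariate.

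Alternatives were RLE and TMMwsp scaling, no filter, DESeq2 1.42.0, limma 3.58.1 voom with sample weights, robust estimation, stem cell libraries in the fit, all 7 HPC-2 libraries, no libraries under 10000 detected genes, detected genes as a covariate, replicate blocks, other limits on the mean and each library left out. Chosen after seeing the data were the fit without HPC-2 replicates 1 and 6 and an offset per library for transcript length and GC content. The fitting steps were tested on simulated counts with 8 and 5 libraries and the spread per gene of these data. All simulated libraries shared a mean profile apart from the changed genes. The loss of genes in single HPC-2 libraries was not simulated. Of well-expressed genes, 7 of 100 changed 4-fold and 50 of 100 changed 16-fold were called in the right direction. A gene that was not called may therefore still differ. Of 10539 unchanged genes 3 were called. That number does not measure false calls in these data, where the loss of genes differed between libraries. Named genes were the 12 with the largest difference each way among called well-expressed genes, the 5 largest each way at 10 to 50 CPM, up to 4 members of each list by adjusted p, and the sort markers, and other list members are named where a count is described. The members, lists and comparison were chosen with earlier results of these data known.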

Additional observations from a re-analysis of the deposited data

Results flagged for a closer look

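In 158 groups of CPM values of named genes, 8 HPC-1 or 5 HPC-2 libraries each, 30 had 1 library at the end of the range separated from the next by more than Dixon's 95% limit, where chance alone separates about 1 in 20 groups.

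In HPC-1, 16 such values were found, 5 in replicate 8, 4 in replicate 1 and 3 in replicate 5. In replicate 8 they were Gm5111 at 516 CPM, Ms4a6b at 270.1 CPM, 4930555A03Rik at 203 CPM, Pf4 at 45.95 CPM and Cd300c at 42.9 CPM. In replicate 1 they were Scin at 10.1 CPM, Gbp2 at 90.4 CPM, Paqr5 at 194 CPM and Rsad2 at 36.5 CPM. In replicate 5 they were Id2 at 237 CPM, Dusp1 at 1021 CPM and Dusp2 at 525 CPM, in the library that also had the highest sum of mature myeloid markers. P2ry14 in replicate 7 stood at 397 CPM, Pfkl in replicate 4 at 21.2 CPM, Klf1 in replicate 6 at 45.7 CPM and Csf1r in replicate 3 at 29.8 CPM.

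In HPC-2, 14 such values were found, 6 of them in replicate 1, the library with the fewest detected genes. There Gbp2 stood at 3642 CPM, Ly6a at 2207 CPM, Aurka at 744 CPM, Armc5 at 693 CPM and Slc38a5 at 645 CPM, each above the other 4 libraries, and Tuba8 at 0 CPM below them. In replicate 6, Aqp1 stood at 736 CPM, Scin at 678 CPM and Pfkl at 329.7 CPM. In replicate 4, Hdc stood at 25.5 CPM and Ifi27l2a at 7.81 CPM. Prdm16 and Mecom in replicate 2 stood at 0.129 CPM each, which is 1 count, and Rsad2 in replicate 3 at 2.63 CPM. For Hdc, Ifi27l2a, Prdm16, Mecom and Rsad2 the other HPC-2 libraries were all at 0, so any count exceeds the limit there.

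Outside the comparison, the left-out libraries labelled HPC-2 held HPC-1 markers that were at 0 in the 5 libraries kept. Dntt stood at 185 CPM in replicate 5 and 410.2 CPM in replicate 7, and Flt3 at 85.3 CPM and 170.4 CPM.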

How the results depend on the processing

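Of 293 well-expressed and 1231 genes called, the well-expressed count was 191 without a filter, 474 with means of at least 10 CPM, and 536 (350 higher, 186 lower) without HPC-2 replicates 1 and 6. With limma voom and sample weights 48 and 103 were called, with all 7 HPC-2 libraries 1 and 17, and with detected genes as a covariate 15 and 26. Without libraries under 10000 detected genes 640 genes were called, and 802 after transplant in place of 530. Leaving out 1 library gave 911 to 2507 genes, the highest without HPC-2 replicate 2, and 183 to 606 well-expressed genes. The well-expressed extremes were 606 without HPC-2 replicate 1 and 183, 184, 194, 183 and 187 without HPC-1 replicates 2, 3, 5, 6 and 8. The difference in detected genes, 6066, ran from 5051 to 6997 over those fits.

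Same-numbered libraries did not deviate together (r from -0.20 to 0.07). Libraries with consecutive numbers in the description had r from -0.10 to 0.10. Neither number was taken to mark pairs. A block on the replicate number left 2 called genes and 2 well-expressed ones, a block on the number in the description 3 and 3, and the block with the length and GC offset 4 and 4. The blocked fits kept only libraries with a partner in the other population, so their counts are not directly comparable with those of the main fit.

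Of 64 called named genes' values under the alternatives 1289 kept direction and call, 505 lost the call and 3 reversed. Over all 87 named genes 28 values reversed, and the cause was not tested. Called ones were Orai2, at 1.19 with voom, 7.29 without libraries under 10000 detected genes and 0.38 with detected genes as a covariate. Ly6a, not called, stood at -0.24 with RLE and with DESeq2, -0.063 without a filter, -0.023 with stem cell libraries, -0.97 with the offset, and from -0.19 to 4.26 without single libraries, negative without HPC-2 replicates 2, 3, 4 and 6 (-0.05, -0.06, -0.10 and -0.19). Pfkp stood at 1.88 with voom and Cdk6 at 0.31 without libraries under 10000 detected genes. That limit kept HPC-2 replicate 2 alone, so the values of Orai2 and Cdk6 under it rest on a single HPC-2 library. With the detected-gene covariate Cdk6 stood at 0.070, Cpa3 at -1.38, Hdc at -3.10, Id2 at -2.78, Cenpf at -2.12, Cdkn1b at -2.35 and Dusp2 at -3.59. Under the replicate block Cdc20 stood at 0.90, E2f1 at 0.29 and Jun at 0.0031, under the block by description Cdc20 at 0.16, and under the block with the offset Cdc20 at 1.04, E2f1 at 0.68 and Jun at 0.62.

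Counts of 0 limit genes under 10 CPM and any gene in HPC-2 replicates 1 and 6, where they were common although total counts were not low. The choice of 5 among 7 HPC-2 libraries decides most calls.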
